A study of Drosophila melanogaster with 12 samples.

Results

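The Cpr genes encode cuticle proteins of Drosophila melanogaster. They were taken here as all genes whose FlyBase symbol is Cpr followed by a digit. The genome annotation holds 70 of them. All 70 have a value in the ChIP-seq table of 13924 genes, and 47 have a row in the RNA-seq table of 12986 genes. The expression of the other 23 is not analysed here.

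Cpr proteins share the Rebers-Riddiford region, a stretch through which cuticle proteins bind chitin, and they are secreted by the epidermis as structural parts of the exoskeleton. Their genes are known for being switched on in the epidermis at particular stages of each molt, under ecdysone. Many lie side by side in clusters, and the symbol gives the cytological position of the gene on the polytene map. The hemocyte-like S2 line, of embryonic origin, is not known to make cuticle.

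The study asked which genes depend on Brahma (BRM), the ATPase of the SWI/SNF chromatin remodeling complex, and which need its ATPase activity. The RNA-seq experiment has 4 groups of 2 biological replicates, all S2 cells that received 30 µg of dsRNA for 48 h. The WT dsBRM cells expressed recombinant wild-type BRM, with dsRNA against BRM to remove the endogenous protein. The K804R dsBRM cells expressed the catalytically inactive recombinant BRM, again with dsRNA against BRM. The empty dsBRM cells had no BRM plasmid and received dsRNA against BRM. The empty dsGFP cells, the controls, had no BRM plasmid and received dsRNA against GFP. Both recombinant proteins came from stably transfected lines and from a metallothionein promoter switched on by copper sulfate in the last 24 h. The labels name an empty plasmid for both other groups, whereas the methods speak of control S2 cells. The copper marker MtnA, a metallothionein, stood at 6763 and 10171 CPM (counts relative to the scaled library total) in WT dsBRM, 7429 and 5239 in K804R dsBRM, 214 and 195 in empty dsBRM and 188 and 223 in empty dsGFP. Recombinant BRM, the transfected line and the copper response therefore cannot be told apart in any comparison with empty cells. The ChIP-seq experiment has 2 immunoprecipitates (IP) of the endogenous BRM of S2 cells and 2 Input samples.

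The libraries held between 6600562 and 10287294 counts. The targeted gene, brm, was at 16635 and 24893 CPM in WT dsBRM and 2118 and 2005 CPM in K804R dsBRM, which includes the transgene as far as its reads map to the gene. It was at 177 and 175 CPM in empty dsBRM, against 433 and 446 CPM in empty dsGFP. All 8 hemocyte markers looked at had counts in every library, and their summed level was 3876 and 2583 CPM in WT dsBRM, 2422 and 1907 in K804R dsBRM, 2914 and 3263 in empty dsBRM and 3101 and 2899 in empty dsGFP. Of the 8, edgeR called 3 higher (NimC1, He and Pxn) and 2 lower (Hml and srp) in WT dsBRM, and 0 higher and 2 lower (Hml and Pxn) in K804R dsBRM, all against empty dsGFP. Of all genes tested, 10.9% were called higher and 7.24% lower in WT dsBRM, and 6.34% higher and 4.15% lower in K804R dsBRM. NimC1, a phagocytosis receptor, reached 376 and 205 CPM in WT dsBRM against 2.74 and 1.83 CPM in empty dsGFP, and Hml, hemolectin, dropped to 97.7 and 29.7 CPM in K804R dsBRM against 828 and 810 CPM in empty dsGFP. Replicates of a group differed by more than counting noise, with a chi-square per degree of freedom between 10.2 and 92.2.

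The promoters of the Cpr genes share a feature that played no part in their choice. The TATA box sequence TATAAA was looked for on the sense strand from position -50 to -10 relative to the annotated gene start. It was present in 42 of the 70 Cpr promoters (60.0%), against 10.1% of 13960 promoters of protein-coding genes and 20.3% of 1909 promoters of genes without a count in empty dsGFP. Its first base lay between -49 and -22, with a median of -29. Among the Cpr genes with an RNA-seq row, it was found in 15 of 30 without a count in empty dsGFP and in 10 of 17 with one. Other motifs were searched on both strands from -250 to 50, and differences in their shares were not tested. AACNNGTT, a core of the sites of Grainy head, was in 14.3% of Cpr promoters and 12.7% of all, and TGANTCA, the AP-1 site, was in 5.71% and 6.18%. The metal response element cores TGCACNC and TGCGCNC were in 17.1% and 12.9% of Cpr promoters, against 10.5% and 9.49% of all promoters. A match is a description of the letters and not evidence of a factor.

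The promoters of the Cpr genes on which the expression results turn are printed from -70 to 30, read 5′ to 3′ on the strand of the gene from the RefSeq genome of Release 6, with every TATAAA in capitals. They are shown so that the place of this box can be compared between them. The promoter of Cpr49Ac is not printed, and its searched window does not hold these letters. Of the 6 Cpr genes tested for expression, 2 had the box in that window (33.3%, against 4.76% of 7613 promoters of tested genes), Cpr67Fa1 and Cpr97Eb, and Cpr97Eb was not called in any comparison. Cpr64Ac and Cpr67Fa2 missed the filter on low counts. Cpr97Ea is at chr3R:27087749-27087848 and Cpr97Eb at chr3R:27091101-27091200, both on the minus strand. Cpr65Au is at chr3L:6132080-6132179 and Cpr64Ac at chr3L:4212886-4212985, both on the minus strand. Cpr67Fa1 is at chr3L:10889920-10890019 and Cpr67Fa2 at chr3L:10891644-10891743, both on the plus strand. Cpr11A is at chrX:12486900-12486999 on the plus strand.
Cpr97Ea: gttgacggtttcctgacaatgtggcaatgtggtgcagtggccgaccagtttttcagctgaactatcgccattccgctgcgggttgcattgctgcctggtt
Cpr97Eb: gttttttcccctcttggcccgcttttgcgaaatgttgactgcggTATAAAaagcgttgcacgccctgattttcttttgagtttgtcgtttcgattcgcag
Cpr65Au: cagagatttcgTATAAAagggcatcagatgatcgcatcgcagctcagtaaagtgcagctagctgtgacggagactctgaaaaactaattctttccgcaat
Cpr67Fa1: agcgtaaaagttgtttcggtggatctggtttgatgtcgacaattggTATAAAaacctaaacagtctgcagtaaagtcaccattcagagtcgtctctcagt
Cpr67Fa2: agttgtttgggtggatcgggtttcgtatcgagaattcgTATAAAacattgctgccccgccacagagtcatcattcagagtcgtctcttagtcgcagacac
Cpr64Ac: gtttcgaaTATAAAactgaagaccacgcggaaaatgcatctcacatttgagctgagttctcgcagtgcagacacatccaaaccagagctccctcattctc
Cpr11A: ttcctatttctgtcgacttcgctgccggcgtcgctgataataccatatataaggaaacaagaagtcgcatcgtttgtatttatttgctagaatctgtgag
Cpr97Eb, Cpr67Fa1 and Cpr67Fa2 have the box within the searched window, Cpr65Au and Cpr64Ac have it farther upstream, and the windows of Cpr97Ea and Cpr11A do not hold these letters. With the window extended to -75, 45 of the 70 Cpr promoters had it (64.3%), against 12.6% of all promoters.

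Most Cpr genes were silent in control S2 cells. Of the 47 with an RNA-seq row, 30 (63.8%) had no count in either empty dsGFP library, against 17.8% of all 12986 genes. A count of 0 in both allows a level of up to 0.170 CPM over the 2 libraries together, so a lower level was not detectable at this depth. Both libraries had 32 Cpr genes at 0, 11 with 1 to 3 counts, 1 with 4 to 9 and 3 with 10 or more. The 3 genes with at least 10 counts in both control libraries were Cpr49Ac, Cpr97Eb and Cpr67B. Per kilobase of exon, Cpr97Eb was at 2.20 and 2.08 CPM, Cpr49Ac at 2.04 and 1.32, Cpr65Au at 1.81 and 1.85, and Cpr67B at 1.15 and 1.21 in empty dsGFP. These are the highest levels of the family in control cells.

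Of the 47 genes, 9 had no count in any of the 8 libraries (19.1%, against 5.70% of all genes). They were Cpr47Eb, Cpr49Ad, Cpr49Af, Cpr50Ca, Cpr50Cb, Cpr5C, Cpr62Ba, Cpr67Fb and Cpr76Bb. A further 22 never exceeded 3 counts, 7 peaked at 4 to 9 counts, and 9 reached 10 or more in some library. The number at 0 in both libraries of a group was 20 in WT dsBRM, 19 in K804R dsBRM and 25 in empty dsBRM, against 30 in empty dsGFP. Of the 30 genes silent in empty dsGFP, 5 had a count in both WT dsBRM libraries (16.7%, against 15.9% of all silent genes) and 5 in both K804R dsBRM libraries (16.7%, against 9.89%). Only 1, Cpr60D, had a count in both empty dsBRM libraries (3.33%, against 3.50% of all silent genes).

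**Figure D1:**
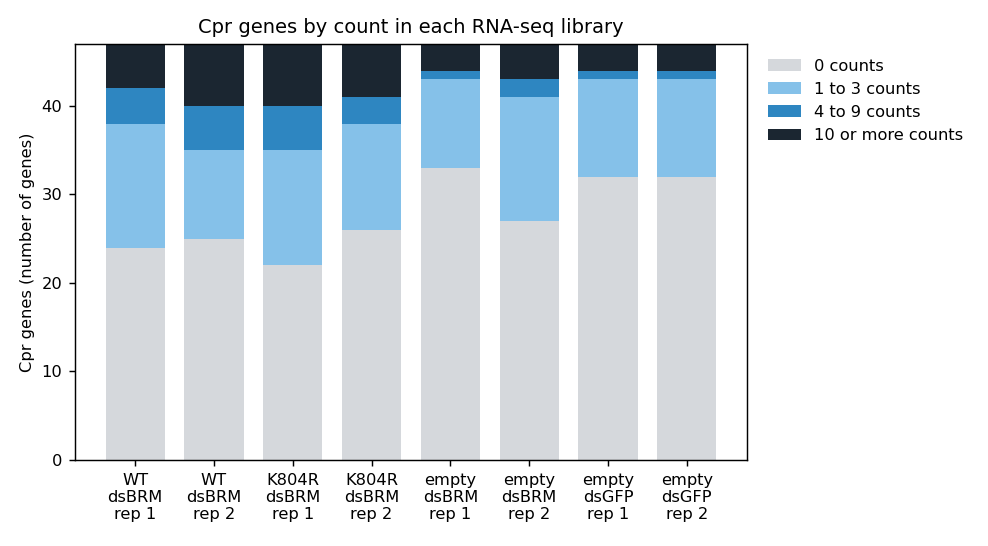
Number of the 47 Cpr genes by their count in each RNA-seq library, with the 8 libraries on the horizontal axis and stacked bars for 0, 1 to 3, 4 to 9, and 10 or more counts. Between 22 and 26 genes were at 0 in the recombinant libraries, and 32 in each empty dsGFP library.

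Summed over the family, the counts were 328 and 322 in WT dsBRM (37.4 and 43.9 CPM of the library total) and 409 and 199 in K804R dsBRM (39.8 and 30.1 CPM). They were 68 and 111 in empty dsBRM (10.3 and 16.1 CPM) and 108 and 80 in empty dsGFP (11.8 and 9.81 CPM). Both recombinant lines were thus above both empty groups in every library. The sum came from few genes. The 6 genes that passed the filter on low counts held between 72.5% and 87.5% of the counts of the family in each library. They were Cpr49Ac, Cpr97Ea, Cpr97Eb, Cpr65Au, Cpr67Fa1 and Cpr11A. In bulk samples, more transcript per cell and more cells with the transcript cannot be told apart.

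Cpr49Ac rose in WT dsBRM cells and not in K804R dsBRM cells. It is an RR protein of the cluster at 49A (2R, FBgn0033725). Its counts were 136 and 99 in WT dsBRM, 31 and 13 in K804R dsBRM, 25 and 32 in empty dsBRM, and 41 and 23 in empty dsGFP. Both WT dsBRM libraries were higher than all others. Scaled by library, with the factors of the trimmed mean of M values (TMM), the level was 15.1 ± 1.50 CPM in WT dsBRM, 2.53 ± 0.798 in K804R dsBRM, 4.08 ± 0.572 in empty dsBRM and 3.57 ± 1.08 in empty dsGFP (SD, n = 2 each). On this scale K804R dsBRM, at 3.10 and 1.97 CPM, lay below empty dsBRM, at 3.67 and 4.48 CPM, a log2 fold change of -0.66 ± 0.36 that did not pass the threshold (adjusted p = 0.263, edgeR). Both overlapped with empty dsGFP, at 4.33 and 2.80 CPM. The log2 fold change against empty dsGFP was 2.07 ± 0.33 (SE) in WT dsBRM, with an adjusted p of 0.00502 by the quasi-likelihood test of edgeR. In K804R dsBRM it was -0.47 ± 0.36 with an adjusted p of 0.491. Between WT dsBRM and K804R dsBRM the log2 fold change was 2.54 ± 0.34 (adjusted p = 0.00721, edgeR). This difference passed the threshold under all 16 alternatives tried, with log2 fold changes between 2.28 and 2.93. The other genes of the 49A cluster with an RNA-seq row, Cpr49Ad, Cpr49Ae, Cpr49Af and Cpr49Ag, never exceeded 4 counts.

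Cpr97Ea rose in both recombinant lines. Its counts were 32 and 71 in WT dsBRM, 96 and 43 in K804R dsBRM, 2 and 12 in empty dsBRM, and 3 and 3 in empty dsGFP. All recombinant libraries were above all empty ones, and WT dsBRM overlapped with K804R dsBRM. Cpr97Ea passed the filter on low counts only through its recombinant libraries, so its calls carry no weight for the family. The log2 fold change against empty dsGFP was 4.28 ± 0.81 in WT dsBRM (adjusted p = 0.0102, edgeR) and 4.51 ± 0.80 in K804R dsBRM (adjusted p = 0.0111). Between WT dsBRM and K804R dsBRM it was -0.23 ± 0.57, with an adjusted p of 0.876. The neighbouring Cpr97Eb, which shares 44.1% of aligned coding positions with Cpr97Ea, had 53 and 24 counts in WT dsBRM, 60 and 34 in K804R dsBRM, 12 and 16 in empty dsBRM, and 22 and 18 in empty dsGFP. Its recombinant libraries were also all higher than the empty ones. Its log2 fold change against empty dsGFP was 1.11 ± 0.39 in WT dsBRM (adjusted p = 0.0866, edgeR) and 1.30 ± 0.38 in K804R dsBRM (adjusted p = 0.0690), and neither was under the threshold of 0.05.

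Cpr65Au, of the cluster at 65A, rose in both lines too. Its counts were 46 and 21 in WT dsBRM, 94 and 46 in K804R dsBRM, 11 and 17 in empty dsBRM, and 9 and 8 in empty dsGFP. The groups did not overlap once scaled, with K804R dsBRM at 9.39 and 6.97 CPM, WT dsBRM at 5.48 and 2.99, empty dsBRM at 1.62 and 2.38, and empty dsGFP at 0.95 and 0.97. The log2 fold change against empty dsGFP was 2.13 ± 0.45 in WT dsBRM (adjusted p = 0.0160, edgeR) and 3.08 ± 0.44 in K804R dsBRM (adjusted p = 0.00452). WT dsBRM against K804R dsBRM gave -0.95 ± 0.38, with an adjusted p of 0.220. A gene on the opposite strand, asRNA:CR46005, shares 491 exonic bases with Cpr65Au. Per the methods the library kit kept the strand, but whether the counting used it is not given in the sources used here, so part of these reads may come from that gene.

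Cpr67Fa1 and Cpr67Fa2, at 67F, are near copies, with 96.5% of 402 coding bases the same, and reads could be shared between them. Cpr67Fa1 had 18 and 42 counts in WT dsBRM, 46 and 12 in K804R dsBRM, 5 and 1 in empty dsBRM, and 3 and 3 in empty dsGFP. All recombinant libraries were higher than the empty ones. Cpr67Fa1 passed the filter on low counts only through these libraries, so its calls carry no weight for the family. The log2 fold change against empty dsGFP was 3.50 ± 0.84 in WT dsBRM (adjusted p = 0.0256, edgeR). In K804R dsBRM it was 3.22 ± 0.85, with an adjusted p of 0.0502 that missed the threshold. Over 16 alternatives the adjusted p was between 0.000443 and 0.251. It was under the threshold in 6 of them, among these DESeq2 (0.0108), and not in 10, among these limma-voom (0.0818). Cpr67Fa2 had 6 and 10 counts in WT dsBRM, 5 and 3 in K804R dsBRM, and none in the 4 empty libraries. Against a floor of 3 counts over both empty dsGFP libraries, it was 6.11-fold higher in WT dsBRM and 2.84-fold higher in K804R dsBRM. The counting error of the recombinant libraries is not in these folds, so they are not strict lower bounds. Cpr67Fb, the third gene of the cluster, had no count.

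Cpr11A, on the X chromosome, rose in K804R dsBRM and was not called in WT dsBRM. It had 2 and 2 counts in WT dsBRM, 22 and 13 in K804R dsBRM, 2 and 6 in empty dsBRM, and 3 and 3 in empty dsGFP. The K804R dsBRM libraries stood above all others. The log2 fold change in K804R dsBRM against empty dsGFP was 2.57 ± 0.56 (adjusted p = 0.0258, edgeR), and in WT dsBRM it was -0.37 ± 0.79 (adjusted p = 0.813). WT dsBRM against K804R dsBRM gave -2.94 ± 0.61 with an adjusted p of 0.0354. This last call was lost when any single library was left out, with adjusted p-values between 0.0659 and 0.166, and also with DESeq2 (adjusted p = 0.0869) and in the fit of only the 4 libraries compared (adjusted p = 0.0988). In all, 11 of the 16 alternatives tried lost it. It rests on few counts. Cpr11A passed the filter on low counts only through its K804R dsBRM libraries, so its calls carry no weight for the family.

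**Figure D2:**
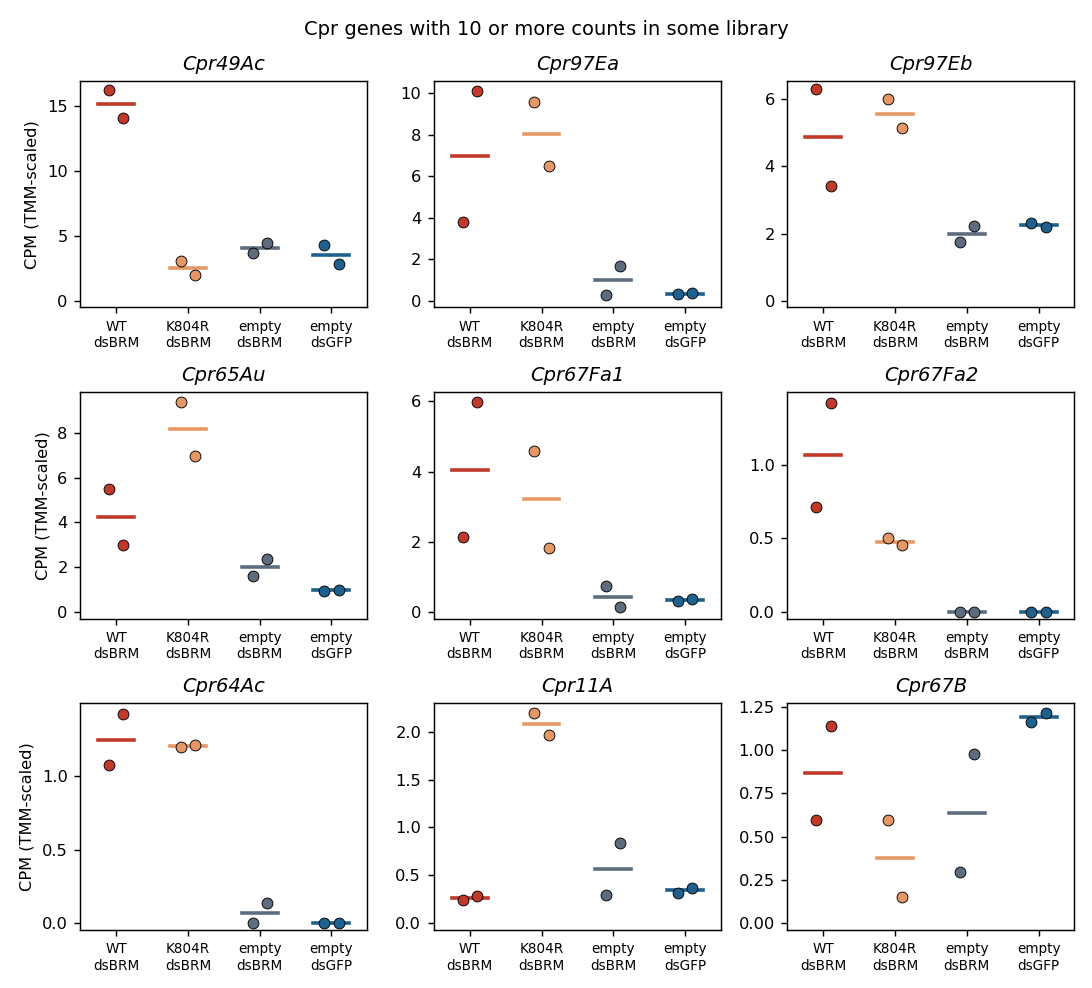
Levels of the 9 Cpr genes with at least 10 counts in some library, in TMM-scaled CPM on the vertical axis of each panel. Points are the 2 replicates of WT dsBRM, K804R dsBRM, empty dsBRM and empty dsGFP, and lines are their means. Cpr49Ac is high in WT dsBRM alone (16.2 and 14.1 CPM), Cpr11A in K804R dsBRM alone (2.20 and 1.97 CPM), and Cpr97Ea, Cpr97Eb, Cpr65Au, Cpr67Fa1, Cpr67Fa2 and Cpr64Ac in both recombinant groups.

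Genes that missed the filter were singled out after their values were seen, among them Cpr67Fa2 and the following. Cpr64Ac, of the cluster at 64A, had 9 and 10 counts in WT dsBRM, 12 and 8 in K804R dsBRM, 0 and 1 in empty dsBRM, and none in empty dsGFP. Against the same floor for empty dsGFP, it was 7.26-fold higher in WT dsBRM and 7.10-fold higher in K804R dsBRM. In an edgeR fit with no filter on low counts its adjusted p against empty dsGFP was 0.00208 in WT dsBRM and 0.00276 in K804R dsBRM. That of Cpr67Fa2 was 0.00948 in WT dsBRM, and Cpr67Fa2 was not called in K804R dsBRM in that fit. Cpr76Bc had 5 and 5 counts in K804R dsBRM and none elsewhere, 3.55-fold above the floor for empty dsGFP. It was not called in the fit with no filter. Cpr67B went the other way. It had 5 and 8 counts in WT dsBRM, 6 and 1 in K804R dsBRM, and 2 and 7 in empty dsBRM, all below the 11 and 10 of empty dsGFP. Once scaled, replicate 2 of WT dsBRM (1.14 CPM) and of empty dsBRM (0.98 CPM) came near empty dsGFP (1.16 and 1.22 CPM). Empty dsBRM was thus lower too, and not the recombinant lines alone.

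Against empty dsGFP, 4 Cpr genes were called higher and none lower in WT dsBRM (Cpr49Ac, Cpr97Ea, Cpr65Au and Cpr67Fa1), where 10.9% of the 8165 genes tested were called higher and 7.24% lower. In K804R dsBRM 3 were called higher and none lower (Cpr97Ea, Cpr65Au and Cpr11A), where 6.34% of all genes were called higher and 4.15% lower. Both comparisons share the control libraries. Only 6 of the 47 genes could be tested, and Cpr97Ea, Cpr67Fa1 and Cpr11A passed the filter through their recombinant libraries, so the share of called genes among the 6 carries no weight. Over all 47 genes, without a filter, 12 were higher in both WT dsBRM libraries than in both empty dsGFP libraries (25.5%, against 24.2% of all genes) and 4 were lower (8.51%, against 19.2%). In K804R dsBRM 11 were higher (23.4%, against 21.8%) and 3 lower (6.38%, against 20.4%). The share of Cpr genes that were higher was thus near that of all genes in both lines. Genes at 0 in both control libraries cannot be lower, and 30 of the 47 were at 0.

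The calls depended on single control libraries. Without replicate 1 of empty dsGFP, Cpr49Ac remained the one gene called in WT dsBRM, and Cpr65Au (adjusted p = 0.102), Cpr67Fa1 (0.139) and Cpr97Ea (0.0759) were lost. Without replicate 2 of empty dsGFP, all 4 were lost, with adjusted p-values of 0.0519 for Cpr49Ac, 0.0975 for Cpr65Au, 0.122 for Cpr67Fa1 and 0.0670 for Cpr97Ea. Without WT dsBRM replicate 1 Cpr65Au was lost (0.0579), as it was in the fit of only the 4 libraries compared (0.0544), and without WT dsBRM replicate 2 Cpr67Fa1 was lost (0.0828). In K804R dsBRM, no Cpr gene was called without replicate 1 of empty dsGFP (0.0505 for Cpr65Au, 0.202 for Cpr11A and 0.0941 for Cpr97Ea), and Cpr65Au remained without replicate 2 (0.157 for Cpr11A and 0.0749 for Cpr97Ea). Cpr11A was also lost without either K804R dsBRM library (0.107 and 0.0944) and with DESeq2 (0.0775). No fold change of a called gene against empty dsGFP changed its sign in these fits. A group of 1 library was assumed to vary like the others.

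**Figure D3:**
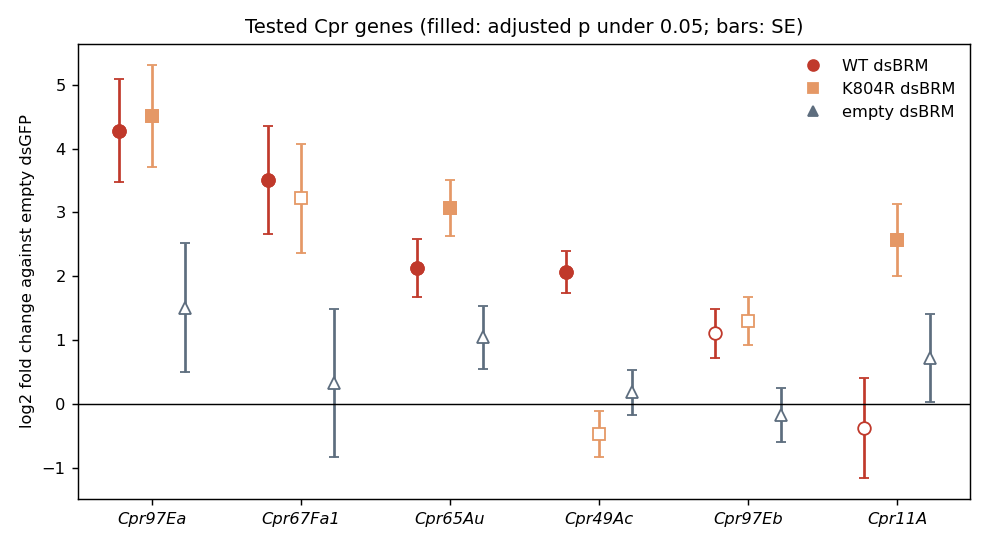
Log2 fold change against empty dsGFP (vertical axis) of the 6 Cpr genes tested, in WT dsBRM (circles), K804R dsBRM (squares) and empty dsBRM (triangles), with bars of 1 SE. Filled symbols have an adjusted p under 0.05. Cpr97Ea reached 4.28 and 4.51 in the recombinant lines, Cpr49Ac 2.07 in WT dsBRM alone and Cpr11A 2.57 in K804R dsBRM alone.

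In the comparison of depletion alone no Cpr gene passed the threshold, and neither did brm, the gene targeted, which had a log2 fold change of -1.32 ± 0.26 (adjusted p = 0.468, edgeR). The lack of calls therefore does not show that Cpr genes were unaffected. In empty dsBRM against empty dsGFP, edgeR called 0 of the 6 Cpr genes tested, 0% of all 8165 genes in either direction. At an unadjusted p under 0.05 it counted 378 genes, 0 of them Cpr genes. DESeq2 called 14 genes higher and 6 lower, and 0 Cpr genes, and limma-voom called none. The log2 fold changes were 1.51 ± 1.00 for Cpr97Ea, 1.05 ± 0.49 for Cpr65Au, 0.73 ± 0.69 for Cpr11A, 0.33 ± 1.16 for Cpr67Fa1, 0.19 ± 0.35 for Cpr49Ac and -0.17 ± 0.42 for Cpr97Eb. Of the 47 genes, 3 were higher in both empty dsBRM libraries (6.38%, against 16.9% of all genes) and 2 lower (4.26%, against 16.3%).

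With BRM-depleted cells as the comparator, the recombinant lines share the dsRNA with it. In WT dsBRM against empty dsBRM, 3 Cpr genes were called higher and none lower, where 11.4% of all genes tested were called higher and 8.1% lower. They were Cpr49Ac (1.89 ± 0.33, adjusted p = 0.00755, edgeR), Cpr67Fa1 (3.17 ± 0.85, adjusted p = 0.0355) and Cpr97Ea (2.77 ± 0.71, adjusted p = 0.0302). None of these was called when either empty dsBRM library was left out, with adjusted p-values of 0.0795 and 0.0628 for Cpr49Ac. In the same fits those of Cpr97Ea were 0.155 and 0.0546 and those of Cpr67Fa1 were 0.0913 and 0.222. In the fit of only the 4 libraries compared, Cpr67Fa1 (0.0581) and Cpr97Ea (0.0701) were lost, and limma-voom did not call Cpr67Fa1 (0.0567). Without WT dsBRM replicate 2, Cpr67Fa1 (0.137) and Cpr97Ea (0.112) were lost, and without either empty dsGFP library Cpr67Fa1 was lost (0.0547 and 0.0552). In K804R dsBRM against empty dsBRM, 2 were called higher and none lower, where 6.87% of all genes were called higher and 4.85% lower. They were Cpr65Au (2.03 ± 0.41, adjusted p = 0.0193, edgeR) and Cpr97Ea (3.00 ± 0.70, adjusted p = 0.0324). Both calls were lost without K804R dsBRM replicate 1 (0.101 and 0.139) and without either empty dsBRM library (0.153 and 0.107 for Cpr65Au, 0.163 and 0.0668 for Cpr97Ea). Cpr97Ea alone was lost without K804R dsBRM replicate 2 (0.0670) and without either empty dsGFP library (0.0520 and 0.0537). Without a filter, 11 of the 47 genes were higher in both WT dsBRM libraries than in both empty dsBRM libraries (23.4%, against 26% of all genes) and 2 lower (4.26%, against 20.9%). In K804R dsBRM 14 were higher (29.8%, against 27.9%) and 3 lower (6.38%, against 22.6%).

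Between the recombinant lines, 1 Cpr gene was called higher in WT dsBRM than in K804R dsBRM (Cpr49Ac) and 1 lower (Cpr11A), where 2.51% of all genes tested were called higher and 2.23% lower. The lines also differed in brm itself, with a log2 fold change of 3.33 ± 0.28 (adjusted p = 0.00126, edgeR), and in NimC1, with 5.51 ± 0.37 (adjusted p = 0.000931). The part of the BRM level, or of other differences between the lines, in these results was not tested. The other 4 genes tested had log2 fold changes between -0.95 for Cpr65Au and 0.28 for Cpr67Fa1, with standard errors between 0.36 and 0.63. Of the 47 genes, 5 were higher in both WT dsBRM libraries than in both K804R dsBRM libraries (10.6%, against 18.9% of all genes) and 6 were lower (12.8%, against 15.4%).

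Other genes of cuticle and chitin were followed as lists. Of 30 other cuticle proteins with the Rebers-Riddiford region, 17 had an RNA-seq row, 4 of them at 0 in all libraries (Lcp4, Lcp65Ac, Edg84A and Crys). The 1 gene tested was l(3)mbn, known also from hemocytes. It had 26 and 17 counts in WT dsBRM, none in K804R dsBRM or empty dsBRM, and 2 and 0 in empty dsGFP, and was called higher in WT dsBRM (adjusted p = 0.0179 against empty dsGFP, edgeR). It passed the filter on low counts only through its WT dsBRM libraries, so this call carries no weight for the list. Of the other cuticle protein families 3 genes were tested. TwdlE, a Tweedle cuticle protein, was higher in both lines, at 16 and 12 counts in WT dsBRM and 58 and 35 in K804R dsBRM, against 5 and 5 in empty dsGFP. Its log2 fold change was 1.65 ± 0.45 in WT dsBRM (adjusted p = 0.0391, edgeR) and 3.26 ± 0.41 in K804R dsBRM (adjusted p = 0.00270). Of all genes tested, 10.9% were called higher in WT dsBRM and 6.34% in K804R dsBRM. TwdlE was between 0.29 and 0.61 CPM in the empty libraries. It passed the filter only through its recombinant libraries, so these calls carry no weight for the list. The other pair, obst-A, a chitin-binding protein, and TwdlG, a second Tweedle protein, had log2 fold changes of -0.75 and 0.54 in WT dsBRM and were not called.

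Of 14 genes of chitin synthesis and modification tested, 2 were called higher and 1 lower in WT dsBRM, and 0 higher and 2 lower in K804R dsBRM, with median log2 fold changes of -0.12 in WT dsBRM and 0.03 in K804R dsBRM. Of all genes tested, 10.9% were called higher and 7.24% lower in WT dsBRM, and 6.34% higher and 4.15% lower in K804R dsBRM. ChLD3, a chitin deacetylase-like protein, rose by 3.25 ± 0.68 in WT dsBRM (adjusted p = 0.0147, edgeR) and the chitinase gene Cht9 by 2.92 ± 0.61 (adjusted p = 0.0148). Cht9 was between 0.42 and 0.73 CPM in the empty libraries. It passed the filter only through its recombinant libraries, so its call carries no weight for the list. The chitinase gene Cht10 gave -1.91 ± 0.43 in WT dsBRM (adjusted p = 0.0194) and -3.30 ± 0.49 in K804R dsBRM (adjusted p = 0.00549). Cda4, a chitin deacetylase, gave 1.35 ± 0.43 in WT dsBRM with an adjusted p of 0.0651. Cda5, another chitin deacetylase, was the second gene called lower in K804R dsBRM.

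Of 5 genes of cuticle tanning tested, WT dsBRM had 1 called higher and 1 lower, and K804R dsBRM 0 higher and 1 lower, where 10.9% and 7.24% of all genes tested were called higher and lower in WT dsBRM and 6.34% and 4.15% in K804R dsBRM. Pu, the GTP cyclohydrolase that starts pteridine synthesis, rose by 1.77 ± 0.44 in WT dsBRM (adjusted p = 0.0282, edgeR). The melanin pathway gene yellow-f2 gave -1.91 ± 0.23 in WT dsBRM (adjusted p = 0.00174) and -3.32 ± 0.25 in K804R dsBRM (adjusted p = 0.000384). Ddc, the dopa decarboxylase, and y, the yellow gene, were not called.

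Of 15 tested regulators from the ecdysone pathway and the epidermis, 1 was called higher in each line (grh), where 10.9% of all genes tested were called higher in WT dsBRM and 6.34% in K804R dsBRM. In WT dsBRM 5 were called lower and in K804R dsBRM 1, where the shares of all genes were 7.24% and 4.15%. The gene grh encodes Grainy head, a transcription factor of the epidermis that acts on cuticle genes. It was at 27.5 and 33.6 CPM in WT dsBRM, 93.3 and 100.7 in K804R dsBRM, 14.6 and 19.6 in empty dsBRM, and 12.4 and 15.6 in empty dsGFP. Its log2 fold change against empty dsGFP was 1.13 ± 0.22 in WT dsBRM (adjusted p = 0.0107, edgeR) and 2.80 ± 0.22 in K804R dsBRM (adjusted p = 0.000410), and WT dsBRM against K804R dsBRM gave -1.67 ± 0.21 (adjusted p = 0.00577). EcR, the ecdysone receptor, was at 49.3 and 48.4 CPM in WT dsBRM against 93.7 and 107 CPM in empty dsGFP, a log2 fold change of -1.04 ± 0.13 (adjusted p = 0.00220). The juvenile hormone receptor gene gce gave -0.94 ± 0.12 in WT dsBRM (adjusted p = 0.00245) and the early ecdysone gene Eip75B gave -0.68 ± 0.17 (adjusted p = 0.0314). The other genes called lower in WT dsBRM were chinmo and usp.

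Of the 10 epidermal markers with an RNA-seq row, 5 were tested, and grh alone was called in either line. Their summed level was 542 and 646 CPM in WT dsBRM, 621 and 991 in K804R dsBRM, 704 and 833 in empty dsBRM and 691 and 681 in empty dsGFP. The cytoskeletal linker shot made up most of it, at 510 and 607 CPM in WT dsBRM, 522 and 886 in K804R dsBRM, 686 and 808 in empty dsBRM and 672 and 659 in empty dsGFP, followed by grh at the levels above. None of the other 8 exceeded 3.69 CPM. The chitin synthase gene kkv was between 0 and 0.40 CPM in all libraries, verm, a chitin deacetylase, was at 0 in all recombinant libraries, and Gasp, a chitin-binding protein, was at most 0.28 CPM. The ovary marker bam, tested as a further check, was not called. Whether the rise of grh has a part in the Cpr results was not tested.

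The BRM signal over the Cpr genes differed between the replicates. For each gene, the IP signal was divided by the Input signal of the same replicate number. Of the 70 Cpr genes 68 reached 0.5 in the Input signal of each replicate. The other pair, Cpr65Ax1 and Cpr65Ax2, have identical coding sequences of 306 bases and had almost no signal in any library. The median log2 IP/Input of the 68 was -0.15 in replicate 1 and 0.35 in replicate 2. That of all 13557 genes was -0.09 in both. In replicate 1, 12 of the 68 were above 0 (17.6%, against 31.5% of all genes). In replicate 2, 56 were above 0 (82.4%, against 39.1%). Across the 68 genes the replicates had a Pearson correlation of -0.36, and across all genes of -0.28, given as a description since genes of 1 library are not independent.

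A mean IP/Input of at least 1.1, the limit the study used for bound genes, was reached by 30 of the 68 Cpr genes (44.1%, against 15.6% of all genes). The study averaged enrichment over the gene and its flanks, and merged the replicates at least for its plots. The mean of 2 replicate ratios used here may therefore differ from its measure. The study lists Cpr49Ac and Cpr97Ea among its BRM-bound target genes, and their mean ratios here were 1.04 and 1.12. The limit was reached in replicate 1 by 4 (5.88%, against 15.9%) and in replicate 2 by 46 (67.6%, against 25.8%). It was reached in both replicates by 0 of 68, where 1.37% of all genes reached it. The test of IP against Input, by limma on log2(signal + 0.1), called 0 Cpr genes and 0% of all genes. At an unadjusted p under 0.05 it counted 6 genes in all, 0 of them Cpr genes. This model ignores the replicate number, although the differences between replicates correlated at 0.69 between IP and Input over 13557 genes. With a replicate block, limma counted 346 genes at an unadjusted p under 0.05, 0 of them Cpr genes, and called 0 genes. A fit without 1 of the IP libraries leaves 1 IP library against 2 Inputs. Its p-values then rest on the spread of the Inputs, so calls of such fits carry no weight.

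Genes without a count in empty dsGFP, as a whole, had the same kind of shift, with medians of -0.14 in replicate 1 and 0.12 in replicate 2. Below a gene length of 1500 bases, the medians were -0.16 and 0.36 for 44 Cpr genes, and -0.13 and 0.06 for 921 silent genes. The Cpr genes silent in empty dsGFP (-0.11 and 0.30, n = 30) were close to those with a count (-0.12 and 0.28, n = 17). Other cuticle proteins with the Rebers-Riddiford region (-0.22 and 0.44, n = 27) and other cuticle families (-0.22 and 0.55, n = 35) had medians of the same sign in each replicate. The ratio moved with GC content. Across the Cpr genes its correlation with the GC percentage of the gene was -0.25 in replicate 1 and 0.48 in replicate 2, and across 13044 genes -0.31 and 0.46. The median GC content was 45.7% for the Cpr genes and 44.3% for all genes. The part of base composition in the BRM signal was not tested.

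**Figure D4:**
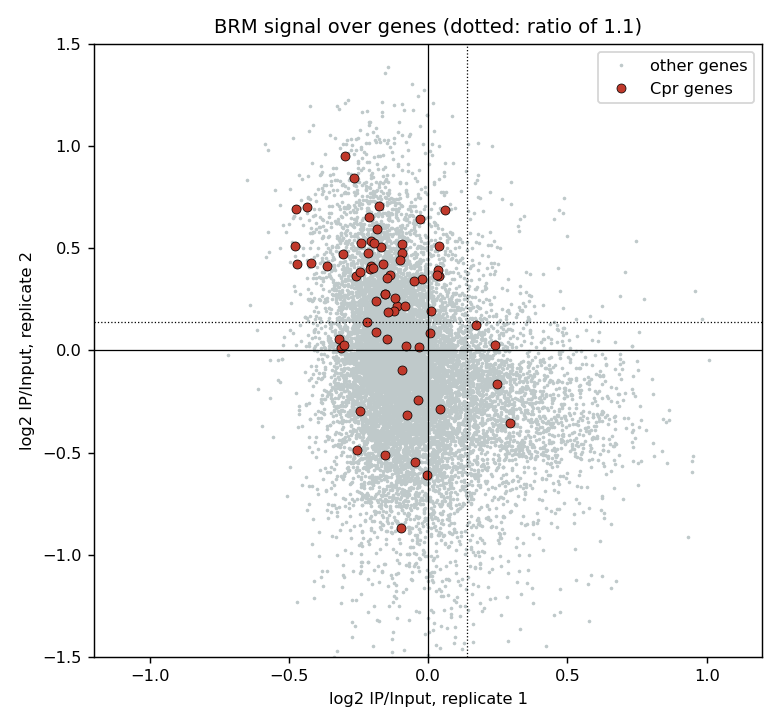
Log2 IP/Input of BRM over each gene in replicate 1 (horizontal axis) and replicate 2 (vertical axis), with Cpr genes as large points over the other genes. Dotted lines mark a ratio of 1.1. Of 68 Cpr genes 46 lie above the line of replicate 2, 4 beyond that of replicate 1 and 0 beyond both. Of all genes, 32 lie outside the axes, 0 of them Cpr genes.

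The signal over the clusters differed between the replicates too. Of the 70 Cpr genes 45 belong to 10 clusters of at least 3 genes that share the letter section of the cytological map, and 43 of them had a ratio. The 8 genes at 49A spread over 38545 bases of 2R (12376626 to 12415170) and the 7 at 65A over 30348 bases of 3L (6131242 to 6161589). In replicate 2 the median log2 IP/Input of a cluster was highest at 64A (0.45, 4 genes), 47E (0.43, 7 genes) and 76B (0.41, 4 genes), and in replicate 1 the same clusters were at -0.21, -0.18 and -0.20. The medians at 49A were -0.03 in replicate 1 and 0.20 in replicate 2. The 5 genes with a ratio at 65A had the lowest median in replicate 2, -0.31, and -0.16 in replicate 1. The highest cluster median in replicate 1 was 0.03, at 72E. The clusters at 72E (0.03 and 0.19) and 78C (0.01 and 0.19) were the ones with a median above 0 in both replicates.

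**Figure D5:**
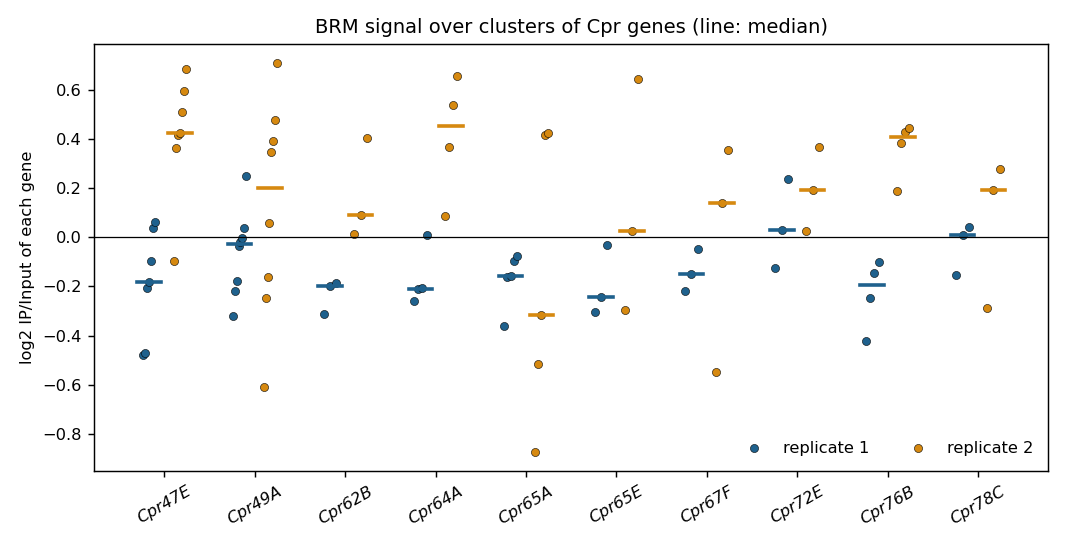
Log2 IP/Input of BRM for each Cpr gene in the 10 clusters of at least 3 genes, in replicates 1 and 2, with lines at the cluster median. The medians of replicate 1 lie between -0.24 and 0.03, and those of replicate 2 between -0.31 and 0.45.

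Genes of a cluster also differed among themselves. At 49A, Cpr49Ac had an IP/Input of 1.19 in replicate 1 and 0.89 in replicate 2. The neighbours named next were singled out after their values were seen. Cpr49Ab had 0.88 and 1.66, and Cpr49Ad 1.00 and 0.64. At 65A, Cpr65Au had 0.93 and 0.52, the lowest ratio of the family in replicate 2, and the lowest GC content (36.8%). The other genes called in the RNA-seq data were Cpr97Ea, at 0.96 and 1.28, Cpr67Fa1, at 0.90 and 1.29, and Cpr11A, at 1.144 and 1.099. Cpr11A thus passed the limit of 1.1 in replicate 1 and just missed it in replicate 2. Cpr97Eb, tested and not called, was at 0.90 and 1.22. Among all Cpr genes, Cpr31A (0.80 and 1.98), Cpr5C (0.81 and 1.87) and Cpr47Ea (1.04 and 1.64), singled out after their values were seen, had the highest mean ratios.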

How the data were processed

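RNA-seq libraries were poly(A) libraries of S2 cells, 2 per group. Per the methods, the authors mapped the reads with TopHat2 and counted them per gene with HTSeq, and left the counts in the deposited table unscaled. ChIP-seq reads were aligned with Bowtie 2, and the deposited table holds the signal the authors averaged with ngs.plot over each gene and short flanks, without the depth of each library. The submitters name the build dm3 and the methods BDGP6 (Dm3), which are different builds, so only gene identifiers were joined. Positions come from the BDGP6 annotation (Release 6), whose symbols matched 95.7% of RNA-seq and 96.1% of ChIP-seq identifiers. The RNA-seq kit was a directional one per the methods. Strand and multi-mapping options of the counting are not given in the sources used here.

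The count test was the quasi-likelihood test of edgeR 4.0.16 in R 4.3.3. All 8 libraries entered 1 model, with TMM scaling, and filterByExpr left 8165 genes to test, and Benjamini-Hochberg adjusted p-values under 0.05 over all genes tested were called. Signal was tested with limma 3.58.1 on log2(signal + 0.1) for the 13557 genes whose Input signal was 0.5 or more in each replicate. Alternatives were DESeq2 1.42.0, limma-voom, other scalings, filters and thresholds, a replicate block, fits of 4 libraries and leaving out each library. With 2 libraries a group, p-values measure the spread between these cultures. Floors of 3 counts cover the counting error of the group at 0 only. Both tests had been checked on simulated data. The simulated ChIP-seq libraries varied independently, unlike the real ones, so that check does not vouch for the signal test here. Genes named by rule were those passing the filter, those called, brm and MtnA. Of each list they were the 4 with the smallest p in WT dsBRM. Other genes were named for their place in a cluster, count class or marker list, or after their values were seen. The Cpr genes, the lists and the tests were chosen with earlier results of these data known. Other steps used Python 3.11.15, and no columns of the authors' own comparisons were used.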

Additional observations from a re-analysis of the deposited data

Results flagged for a closer look

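Cpr49Ac and Cpr11A differed between the recombinant lines, each by a direct test of WT dsBRM against K804R dsBRM. Cpr11A passed the filter on low counts only through its K804R dsBRM libraries. For Cpr49Ac the log2 fold change was 2.54 ± 0.34 (adjusted p = 0.00721, edgeR), with 136 and 99 counts in WT dsBRM and 31 and 13 in K804R dsBRM, and for Cpr11A it was -2.94 ± 0.61 (adjusted p = 0.0354, edgeR), with 2 and 2 counts in WT dsBRM and 22 and 13 in K804R dsBRM. The call of Cpr49Ac was kept under all 16 alternatives tried and that of Cpr11A was lost under 11 of 16. The lines also differed in brm (log2 fold change 3.33 ± 0.28, adjusted p = 0.00126, edgeR) and in the hemocyte marker NimC1 (5.51 ± 0.37, adjusted p = 0.000931), and the part of these differences in the Cpr results was not tested.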

How the results depend on the processing

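A single Cpr fold change was set against its value under another setting in 368 comparisons. Of these, 295 kept their side of the threshold, 52 lost a call, 21 gained one and 0 changed sign. Only the 23 fold changes with an unadjusted p under 0.05 in the main edgeR fit entered, which favours a stable sign. Among those left out, Cpr97Ea in WT dsBRM against K804R dsBRM ranged from -1.09 to 0.31 and Cpr67Fa1 from -0.62 to 1.13. Against empty dsGFP, the number of Cpr genes called in WT dsBRM was 4 and ranged from 0 to 6 when a library was left out. In K804R dsBRM it was 3 and ranged from 0 to 5. Against empty dsBRM it was 3 in WT dsBRM (0 to 3) and 2 in K804R dsBRM (0 to 4), and between the recombinant lines 2 (1 in every such fit). Under a threshold of 0.01 these counts were 1, 1, 1, 0 and 1, in the order just given. With no filter on low counts they moved to 6 in both WT dsBRM and K804R dsBRM against empty dsGFP, with Cpr64Ac and Cpr67Fa2 added in WT dsBRM, and against empty dsBRM to 6 in WT dsBRM and 5 in K804R dsBRM. In fits of only the 4 libraries compared they moved to 5 in K804R dsBRM against empty dsGFP, to 1 in WT dsBRM and 4 in K804R dsBRM against empty dsBRM, and to 1 between the recombinant lines. At an unadjusted p under 0.05 (edgeR) each of the first 4 comparisons had 5 of the 6 Cpr genes tested. Of all 8165 genes tested, 2562, 2049, 2809 and 2354 were under it, in the same order. The shares of all genes under the other settings are not given here, so those counts describe single calls and not the family. DESeq2 gave 1 between the recombinant lines. The cause of these changes was not tested, beyond the fewer libraries or genes that a setting uses.

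Replicate numbers were not taken as pairs of RNA-seq libraries, since the deviations of same-numbered libraries did not go together in every group pair. They correlated at 0.63 between WT dsBRM and empty dsGFP, and between -0.32 and 0.24 in the other group pairs. Whether some libraries share a batch was not tested. With the replicate block, the calls of Cpr67Fa1 in WT dsBRM against empty dsBRM (adjusted p = 0.0581) and of Cpr11A between the recombinant lines (adjusted p = 0.0559, leaving 1 call) were lost, and no other call of a Cpr gene changed. In the ChIP-seq data the block left 0 Cpr genes called.

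The number of Cpr genes with a mean IP/Input of at least 1.1 was 30. It was 50 at a limit of 1.0, 48 after dividing the ratios of each replicate by their median, 0 when both replicates had to pass, and between 4 and 46 with 1 replicate alone. The shares of all genes at the limit of 1.0 and after that division are not given here. The median log2 IP/Input over both replicates was 0.07, and reversed between the replicates taken alone, -0.15 without replicate 2 and 0.35 without replicate 1. Leaving out 1 ChIP-seq library gave between 0 and 13 Cpr genes called, with IP replicate 1 deciding the 13. The 13 came from the fit without IP replicate 1, which leaves 1 IP library against 2 Inputs. Its p-values rest on the spread of the Inputs, so the 13 carries no weight as evidence of BRM binding. The ChIP-seq table gives no reads, so no counting error could be set. The number of Cpr genes without a count in empty dsGFP, 30, was 32 with either library alone.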
